A study of Homo sapiens with 24 samples.

Results

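The 41 genes described here encode the protein-folding machinery of the endoplasmic reticulum (ER), the sensors of unfolded protein and the factors that send misfolded protein to degradation. They were chosen by name, as the rows whose Entrez identifiers map to the 41 symbols, and all 41 were found among the 25343 genes listed for each library. By role there were 6 sensors and transcription factors, 11 Hsp70 and Hsp90 chaperones and their cofactors, 3 lectin chaperones, 10 disulfide and prolyl isomerases and oxidases, and 11 genes of ER-associated degradation (ERAD).

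RNA came from the colon cancer line HCT116 and the melanoma line A375. Each line was used as the PTDSS2 wild-type parent and as a PTDSS2 knockout, clone #3 of HCT116 and clone #54 of A375, so each knockout is 1 clone and differences between knockouts are also differences between clones. Cells in 12-well plates received vehicle (DMSO) or 0.1 µM of the PTDSS1 inhibitor DS07551382 for 24 h, which gave 8 groups of 3 libraries. Both enzymes make phosphatidylserine, a phospholipid, in the ER membrane. Nothing in the labels says that the 3 libraries of a group were separate cultures, so p-values describe only how these libraries vary, and that variation may be technical.

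Proteins that enter the ER are bound by the chaperone BiP and by the lectins calnexin and calreticulin while isomerases form their disulfide bonds. When unfolded protein accumulates, IRE1 splices the XBP1 messenger RNA, PERK slows translation through eIF2α and ATF6 is cut to release a transcription factor. Together these branches of the unfolded protein response raise the chaperones and the ERAD machinery, which draws misfolded protein out of the ER for the proteasome.

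The members were selected by function and not by sequence, and control sequences of this response are shown here. Whether the elements were first defined on promoters of these members was not checked. If they were, the shares below were partly fixed in advance, so these shares are descriptions only. The ER stress response element (ERSE) was searched as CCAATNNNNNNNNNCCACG and the related ERSE-II as ATTGGNCCACG, on both strands, from 250 bases before to 50 after each start site in RefSeq promoters of GRCh38.p14. A promoter was given for 38 of the 41 members. ERSE was found in 8 of the 38 (21.1%), against 0.0916% of 27305 genes with a promoter, and ERSE-II in 3 (7.89%), against 0.0696%. Below, each window is written in the direction of the gene, with the fixed bases of the element in capitals. CGTGG with ATTGG or CCAAT marks an element on the opposite strand.
XBP1 (ERSE, chr22:28800583-28800641, minus strand): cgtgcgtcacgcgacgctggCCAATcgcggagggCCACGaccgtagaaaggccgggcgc
HSPA5 (ERSE, chr9:125241371-125241429, minus strand): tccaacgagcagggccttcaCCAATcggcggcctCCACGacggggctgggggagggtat
HSP90B1 (ERSE, chr12:103930196-103930254, plus strand): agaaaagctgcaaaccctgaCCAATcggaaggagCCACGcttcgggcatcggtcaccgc
CANX (ERSE, chr5:179698758-179698816, plus strand): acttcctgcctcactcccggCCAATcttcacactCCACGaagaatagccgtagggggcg
CALR (ERSE, chr19:12938364-12938422, plus strand): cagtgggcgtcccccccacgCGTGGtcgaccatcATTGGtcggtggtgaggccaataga
HERPUD1 (ERSE-II, chr16:56932005-56932055, plus strand): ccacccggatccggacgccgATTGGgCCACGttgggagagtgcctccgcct
HYOU1 (ERSE-II, chr11:119057254-119057304, minus strand): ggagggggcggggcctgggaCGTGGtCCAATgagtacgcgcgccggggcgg
SDF2L1 (ERSE-II, chr22:21642094-21642144, plus strand): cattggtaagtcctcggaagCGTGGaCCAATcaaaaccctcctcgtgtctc

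ERSE also stood in the promoters of CRELD2, ERO1B and PDIA6. A further site, not printed above, lay 89 bases before the start in HSP90B1 (ERSE) and 185 before it in HYOU1 (ERSE-II). The core CCACG alone, which both elements contain, was in 27 of 38 member promoters (71.1%) against 42.1% of all. The unfolded protein response element TGACGTGG, whose other strand also holds that core, was in 4 (10.5%, DNAJC10, HYOU1, TXNDC11 and TXNDC5) against 0.927%. In HYOU1 it began 188 bases before the start and shared bases with the further ERSE-II. The C/EBP-ATF letters TGATGNAA were in 2 (5.26%) against 4.46%. A match of letters is a description and shows no binding.

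Library totals ran from 6.21 to 11.7 in units of 1e6 counts, with a median of 9.20. The inhibitor-treated knockouts held both extremes, at 7.91, 6.54 and 6.21 in HCT116 and 9.41, 10.3 and 11.7 in A375. PTDSS2 itself, the check of the labels, was at 32.4 to 36.8 counts per 1e6 (CPM) in the vehicle libraries of the HCT116 parent and at 5.35 to 7.72 in those of its knockout. In A375 it was at 22.7 to 24.7 CPM in the parent and at 0.736 to 1.02 in the knockout. Against the parent in vehicle it was at -2.43 ± 0.11 in HCT116 and -4.71 ± 0.18 in A375 (log2, ± standard error), so the residual RNA was unequal. With inhibitor it was higher in the A375 knockout by 0.89 ± 0.31 (edgeR quasi-likelihood test, adjusted p = 0.0289), at low counts. In the HCT116 knockout that change was -0.18 ± 0.17 and was not called. Of the markers of line identity, EPCAM (290 CPM), KRT8 (1986 CPM) and CDX2 (16.8 CPM) were present in the HCT116 parent and VIL1 was near 0 at 0.0344. In the A375 parent SOX10 (407 CPM), ERBB3 (343 CPM) and MITF (32.0 CPM) were present, while the pigment genes PMEL and MLANA were under 1 and TYR was at 0. Between the vehicle-treated parents (A375 minus HCT116, log2 scale) EPCAM was at -9.02, CDH1 at -7.45, KRT8 at -6.44, CDX2 at -10.2 and KRT18 at -1.46. SOX10 was at 10.7, MITF at 4.20 and ERBB3 at 3.31, while PMEL went the other way at -3.15. In bulk RNA a smaller share of responding cells and less RNA per cell cannot be told apart.

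The members differed widely in level before any inhibitor. On the deposited TPM scale, which is per length and allows genes to be compared, the mean over the 3 vehicle libraries of the HCT116 parent ran from 3.57 for ERO1B, an oxidase that recharges the disulfide isomerases, to 986 for HSP90B1, the Hsp90 of the ER. In the A375 parent it ran from 1.64 for ERN1, which encodes IRE1, to 1114 for CALR, which encodes calreticulin. The abundant chaperones and isomerases led in each line, with HSPA5 (BiP) at 483 ± 12.9 TPM (SD, n = 3) in HCT116 and 482 ± 6.31 in A375. The sensors and transcription factors ran from ERN1, at 5.05 TPM in HCT116 and 1.64 in A375, up to XBP1, at 60.7 and 68.2. The median of the members was 60.7 TPM in HCT116 and 50.2 in A375. ATF6 was at 15.2 to 17.1 TPM in HCT116 and 21.3 to 22.9 TPM in A375.

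The parents differed in most members, as they did in most genes. In a fit of all 24 libraries, 20 members were higher in the A375 parent than in the HCT116 parent and 15 were lower (edgeR quasi-likelihood test, adjusted p under 0.05), where 42.2% and 39.6% of all genes tested were called higher and lower. Transcripts of the mannosidase-like ERAD genes EDEM1 and EDEM3 stood higher in A375, by 2.35 ± 0.06 and 1.61 ± 0.05 on the log2 scale (± standard error), as did ERO1B at 2.05 ± 0.10. SDF2L1, a cofactor of the Hsp40 protein ERdj3, was lower by -1.60 ± 0.07 and ERN1 by -1.57 ± 0.18. HSPA5 differed by 0.05 ± 0.03 (adjusted p = 0.126). The plot of parent levels shows these outlying members around the line of equal level.

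**Figure D1:**
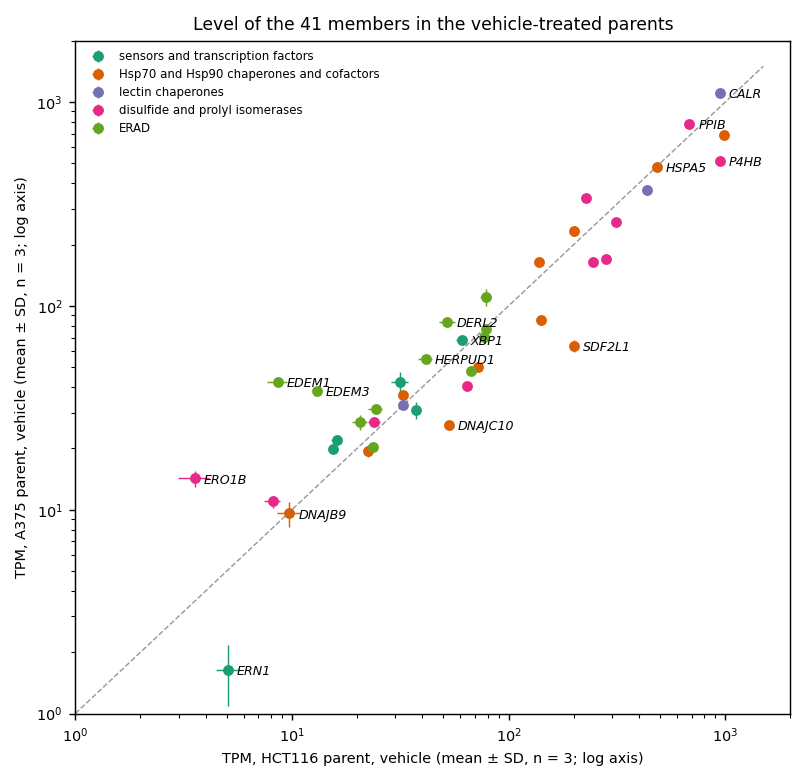
Mean level in TPM of the 41 members in the vehicle-treated HCT116 parent (horizontal, log axis) and A375 parent (vertical, log axis), with SD over 3 libraries and colour by role. The dashed line marks equal levels. EDEM1, EDEM3 and ERO1B lie above it, and SDF2L1, DNAJC10 and ERN1 below it.

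The inhibitor left the members near their vehicle level in cells with PTDSS2. In the HCT116 parent 0 of 41 members were called by edgeR's quasi-likelihood test, against 0% of 13164 genes tested. At an unadjusted p under 0.05 edgeR gave 2 members, UGGT1 and DERL1, and DESeq2 and limma-voom called 0. Over all genes edgeR, DESeq2 and limma-voom called 0, 1 and 0, and 236 genes lay higher and 294 lower at an unadjusted p under 0.05. In the A375 parent 0 members were called, against 0.104% of 13456 genes, with 4 members at an unadjusted p under 0.05 (XBP1, SDF2L1, TXNDC5 and EDEM3) and 0 called by DESeq2 or limma-voom. Member log2 changes ran from -0.16 to 0.21 in the HCT116 parent and from -0.18 to 0.15 in the A375 parent.

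In the A375 knockout the inhibitor raised nearly all of the 41 members. Of 41 members 37 rose and 0 fell by edgeR's quasi-likelihood test, where 18.7% of genes tested rose and 18.9% fell. At an unadjusted p under 0.05 38 members were higher and 0 lower, and DESeq2 and limma-voom called 36 and 37 higher and 0 lower. The median member changed by 0.42 on the log2 scale, against 0.0055 over all genes tested. By role 4 of 6 sensors, 11 of 11 Hsp70 and Hsp90 chaperones and cofactors, 2 of 3 lectin chaperones, 10 of 10 isomerases and oxidases and 10 of 11 ERAD genes rose. The members made up 0.666% ± 0.003 (SD, n = 3) of all TPM in knockout vehicle and 0.899% ± 0.0041 with inhibitor, against 0.649% and 0.645% in the A375 parent.

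Among the sensors of the A375 knockout, XBP1, the transcription factor activated by IRE1, read 65.3, 63.3 and 63.8 CPM in vehicle and 126, 120 and 128 CPM with inhibitor. The groups were far apart, and the 6 A375 parent libraries, at 58.9 to 67.3 CPM, lay with knockout vehicle. The rise was 0.96 ± 0.05 (edgeR adjusted p = 9.34e-26). CREB3L2, a membrane-bound factor related to ATF6, went from 73.9, 74.7 and 68.2 CPM to 121, 111 and 116 CPM, again without overlap, a rise of 0.68 ± 0.05 (edgeR adjusted p = 7.71e-18). CREB3, of the same family, rose by 0.38 ± 0.08 and ATF6 by 0.22 ± 0.05. ATF6B, a homologue of ATF6, was at 0.04 ± 0.07, and ERN1, at 3.04 to 5.24 CPM in these libraries, was at 0.35 ± 0.23. Neither passed the test (edgeR adjusted p = 0.702 and 0.237).

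All 11 Hsp70 and Hsp90 members rose in this clone. HSPA5 read 1071, 1039 and 1040 CPM in vehicle and 1787, 1767 and 1788 CPM with inhibitor, with a gap many times the spread within either group. Its rise was 0.76 ± 0.02 (edgeR adjusted p = 2.28e-34). DNAJB9, an Hsp40 cofactor of BiP that represses IRE1, went from 11.8, 13.1 and 12.6 CPM to 30.1, 28.9 and 30.8 CPM, the largest rise of the 41 at 1.26 ± 0.10 (edgeR adjusted p = 2.75e-17). HYOU1, a nucleotide exchange factor of BiP, rose by 0.65 ± 0.03, from 380 to 391 CPM up to 600 to 613 CPM. The other 8 rose by 0.35 (DNAJB11) to 0.48 (SIL1), with HSP90B1 at 0.41 ± 0.03 and the secreted stress proteins MANF and CRELD2 at 0.47 ± 0.04 and 0.39 ± 0.07.

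Lectin chaperones retain unfinished glycoproteins, and here they divided. CANX, the membrane-bound calnexin, read 686, 679 and 703 CPM in knockout vehicle and 901, 926 and 926 CPM with inhibitor, a rise of 0.41 ± 0.03 (edgeR adjusted p = 5.98e-20). Its 3 parent vehicle libraries were at 889, 940 and 933 CPM, so the knockout in vehicle was the low group and the inhibitor-treated knockout lay in the parent's range. UGGT1, which marks unfolded glycoproteins for another folding round, rose by 0.23 ± 0.04. CALR, the soluble partner of calnexin, read 1141, 1110 and 1148 CPM in vehicle and 1153, 1180 and 1180 CPM with inhibitor, a change of 0.05 ± 0.02 that was not called (edgeR adjusted p = 0.151). With scaling by library size alone that CALR change was called.

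All 10 isomerases and oxidases rose in the A375 knockout, by amounts that differed between them. PDIA4, a disulfide isomerase, read 260, 252 and 250.1 CPM in vehicle and 384, 394 and 387 CPM with inhibitor, without overlap and with a rise of 0.61 ± 0.03 (edgeR adjusted p = 6.54e-25). ERO1B went from 32.1, 30.8 and 31.0 CPM to 56.3, 58.5 and 58.6 CPM, a rise of 0.88 ± 0.07 (edgeR adjusted p = 1.79e-17). FKBP14, a prolyl isomerase that acts on procollagen, rose by 0.81 ± 0.08, from 29.5 to 30.1 CPM up to 49.4 to 56.9 CPM. P4HB, the archetypal disulfide isomerase, rose by 0.55 ± 0.03, TXNDC11 by 0.43 ± 0.06, PDIA3 by 0.34 ± 0.03, PPIB by 0.33 ± 0.03, TXNDC5 by 0.31 ± 0.03 and PDIA6 by 0.30 ± 0.03. ERO1A, the other oxidase, had the smallest rise of the group at 0.15 ± 0.05 (edgeR adjusted p = 0.0161). DESeq2 did not call it, nor did the fits without knockout vehicle replicate 3 or knockout inhibitor replicate 2.

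ERAD genes rose in 10 of 11 cases. HERPUD1, which assembles the HRD1 ligase complex, read 49.5, 51.0 and 48.5 CPM in vehicle and 114, 113 and 108 CPM with inhibitor, an increase of 1.17 ± 0.05 (edgeR adjusted p = 2.12e-27). SYVN1, the HRD1 ubiquitin ligase itself, went from 41.8, 43.3 and 41.1 CPM to 84.1, 72.7 and 81.5 CPM (0.92 ± 0.06, edgeR adjusted p = 2.28e-20), and its adaptor SEL1L rose by 0.56 ± 0.05. In each of these the inhibitor libraries lay above every vehicle library. The lectins and mannosidase-like proteins that pick out glycoproteins rose too, EDEM1 by 0.55 ± 0.04, EDEM3 by 0.52 ± 0.04, EDEM2 by 0.44 ± 0.08 and OS9 by 0.25 ± 0.04. SELENOS and SELENOK, selenoproteins of the ER membrane, rose by 0.46 ± 0.06 and 0.41 ± 0.06, and DERL1, a channel component, by 0.24 ± 0.05. DERL2, its relative, read 44.2, 52.0 and 43.0 CPM against 48.8, 59.4 and 49.7 CPM, overlapping groups with a difference of 0.19 ± 0.08 (edgeR adjusted p = 0.0678) that was called in 8 alternative settings.

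**Figure D2:**
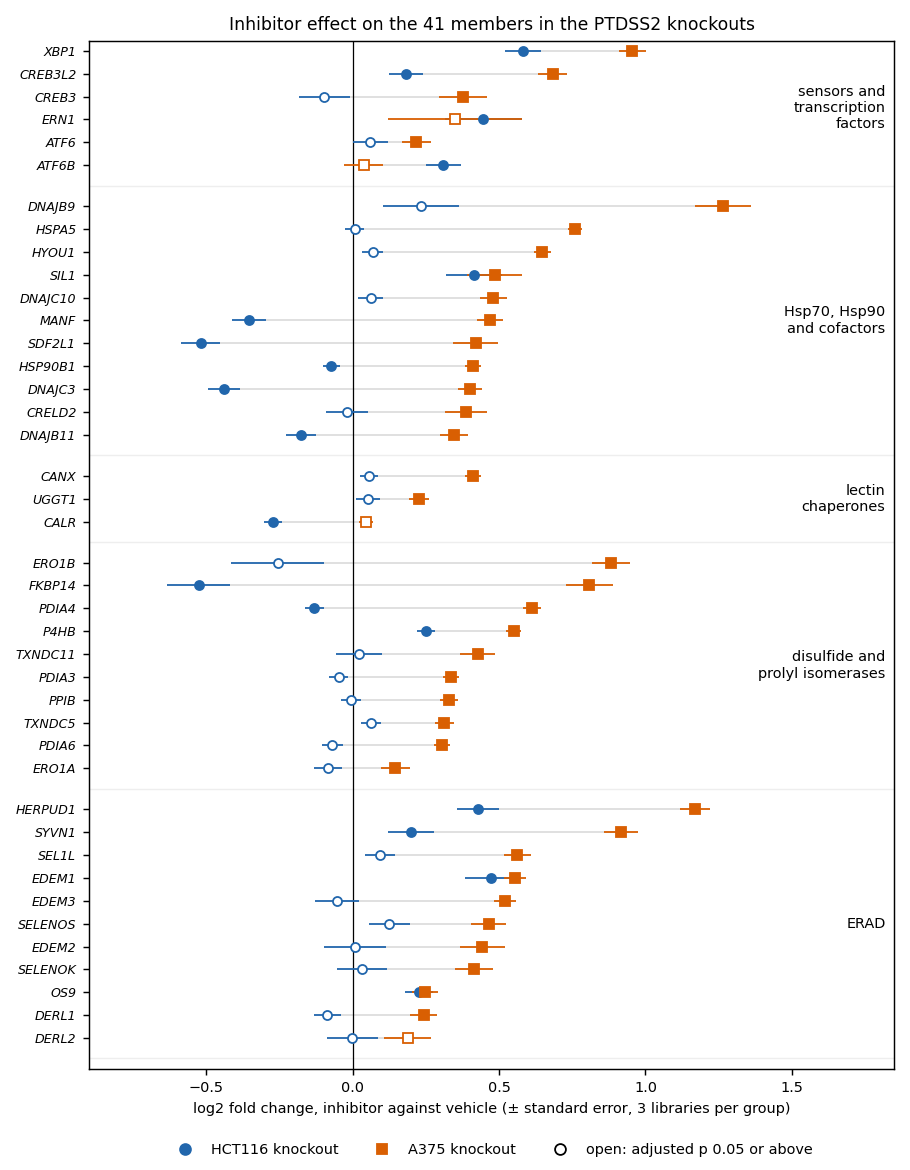
Log2 fold change of inhibitor against vehicle (horizontal, ± standard error, 3 libraries per group) for each member, by role, in the HCT116 knockout (circles) and the A375 knockout (squares), with open symbols at an adjusted p of 0.05 or above. All 41 squares lie right of 0, from 0.04 (ATF6B) to 1.26 (DNAJB9), and the circles run from -0.53 (FKBP14) to 0.58 (XBP1).

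The same treatment moved members of the HCT116 knockout in both directions. Of 41 members 10 rose and 8 fell by edgeR's quasi-likelihood test, where 17.1% of genes tested rose and 20.1% fell, and the median member was at 0.02 against 0.0022 over all genes. The shares of members called, 10 and 8 of 41, were near those backgrounds. The rises were 4 of 6 sensors, 4 of 11 ERAD genes, SIL1 and P4HB, and no sensor or ERAD gene was called lower. The falls were 5 of 11 Hsp70 and Hsp90 members, 2 of 10 isomerases and CALR. Whether the roles differed was not tested. The calls on HSP90B1, SYVN1, CREB3L2 and DNAJB11 were lost in some settings, as given below. The members' share of all TPM was 0.700% ± 0.0037 (SD, n = 3) in knockout vehicle and 0.690% ± 0.0068 with inhibitor.

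XBP1 had the largest rise of the HCT116 knockout, from 53.0, 53.1 and 43.6 CPM to 74.4, 75.8 and 72.9 CPM, with no overlap (0.58 ± 0.06, edgeR adjusted p = 5.1e-12). ERN1, the sensor that splices it, went from 9.41, 10.0 and 10.1 CPM to 13.6, 13.5 and 13.0 CPM (0.45 ± 0.13, edgeR adjusted p = 0.00539). ATF6B read 59.8, 59.4 and 55.3 CPM in knockout vehicle and 76.5, 70.7 and 67.6 CPM with inhibitor, above the 6 parent libraries at 40.4 to 48.0 CPM (0.31 ± 0.06, edgeR adjusted p = 1.84e-05). CREB3L2 rose by 0.18 ± 0.06, while ATF6 at 0.06 ± 0.06 and CREB3 at -0.10 ± 0.09 did not pass the test. The CREB3L2 call was lost without knockout vehicle replicate 3 or knockout inhibitor replicate 3.

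Among the chaperones of the HCT116 knockout, HSPA5 read 856, 902 and 853 CPM in vehicle and 880.1, 902 and 833 CPM with inhibitor. The groups overlapped, and the change was 0.01 ± 0.03 with a 95% interval from -0.06 to 0.07. SDF2L1 fell from 70.2, 78.4 and 67.3 CPM to 52.9, 49.3 and 47.4 CPM, a change of -0.52 ± 0.07 (edgeR adjusted p = 3e-09), and the Hsp40 gene DNAJC3 from 87.7, 85.3 and 88.5 CPM to 64.6, 63.9 and 63.9 CPM, a change of -0.44 ± 0.05 (edgeR adjusted p = 5.03e-10). In each the 3 inhibitor libraries lay below every HCT116 library of the other groups. MANF fell by 0.35 ± 0.06 and DNAJB11, the Hsp40 protein ERdj3, by 0.18 ± 0.05. The call on DNAJB11 was lost without knockout vehicle replicate 2 or knockout inhibitor replicate 3. HSP90B1, at -0.07 ± 0.03 (edgeR adjusted p = 0.0486), lost its call with DESeq2, with DESeq2 size factors, with a filter at 5 CPM, with only the groups compared, and without vehicle replicate 2 or 3 or any of the 3 inhibitor libraries of the knockout. SIL1, an exchange factor of BiP, was the only member of this role to rise, by 0.41 ± 0.10.

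CALR fell in the HCT116 knockout from 842, 897 and 857 CPM to 729, 717 and 696 CPM (-0.27 ± 0.03, edgeR adjusted p = 5.92e-11), below the 9 other HCT116 libraries. CANX at 0.06 ± 0.03 and UGGT1 at 0.05 ± 0.04 were not called. Of the isomerases FKBP14 fell from 19.8, 20.2 and 23.6 CPM to 14.4, 15.6 and 14.1 CPM (-0.53 ± 0.11, edgeR adjusted p = 6.42e-05) and PDIA4 by 0.13 ± 0.03. P4HB rose by 0.25 ± 0.03, from 1086 to 1160 CPM up to 1295 to 1370 CPM. The remaining 7 of this role lay between -0.26 (ERO1B) and 0.06 (TXNDC5) without a call.

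Of the ERAD genes of the HCT116 knockout, EDEM1 went from 27.5, 22.3 and 24.4 CPM to 32.7, 35.5 and 34.7 CPM (0.47 ± 0.09, edgeR adjusted p = 1.01e-05) and HERPUD1 from 37.7, 34.3 and 35.5 CPM to 49.6, 48.0 and 46.5 CPM (0.43 ± 0.07, edgeR adjusted p = 1.13e-06). Neither pair of groups overlapped. OS9, which delivers glycoproteins to the HRD1 complex, rose by 0.23 ± 0.05 and SYVN1 by 0.20 ± 0.08. The SYVN1 call (edgeR adjusted p = 0.0394) was lost with DESeq2, without a filter, and without knockout vehicle replicate 1 or 3 or knockout inhibitor replicate 2 or 3. The other 7 ERAD genes lay between -0.09 (DERL1) and 0.13 (SELENOS), none called.

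**Figure D3:**
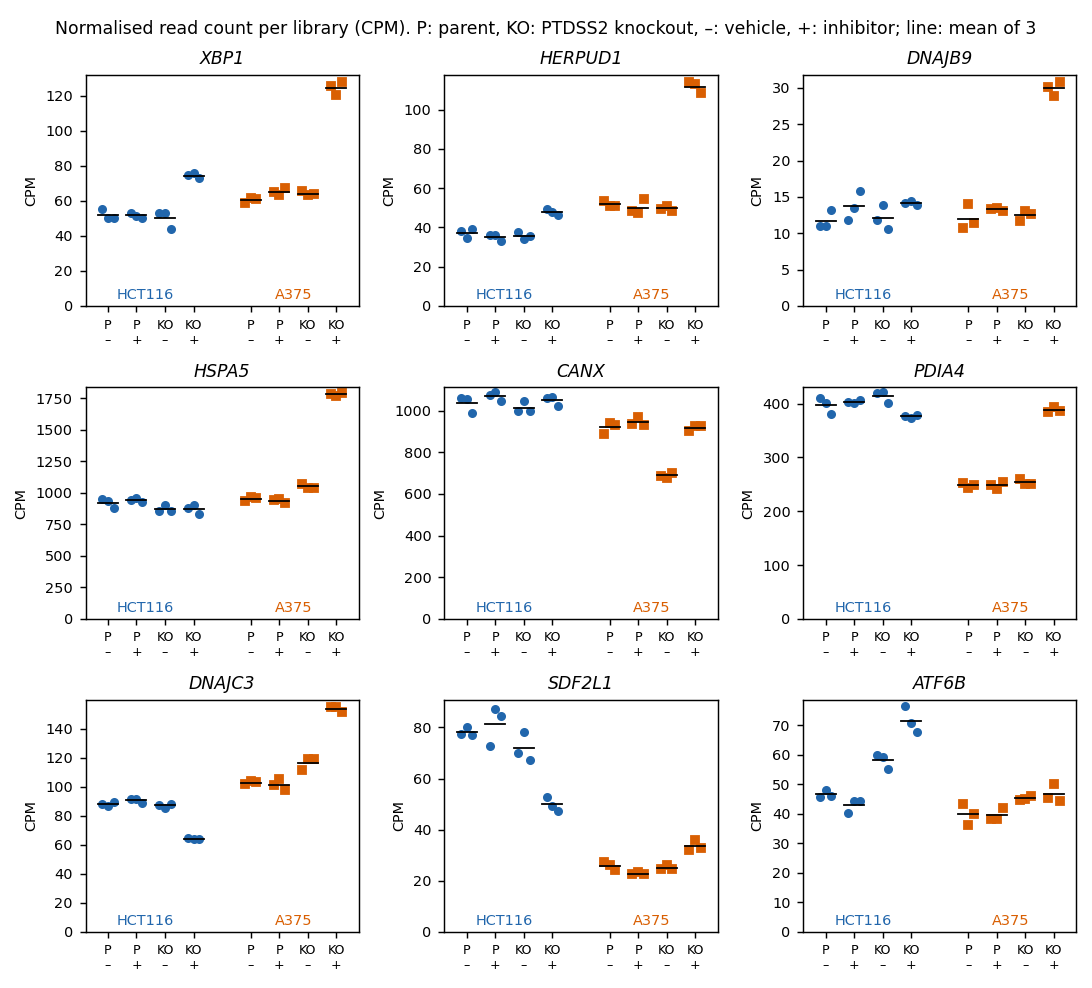
Normalised read count (CPM, axes from 0) of 9 members in each of the 24 libraries, by parent (P) or PTDSS2 knockout (KO) and vehicle (–) or inhibitor (+), with a line at the mean of 3. XBP1 and HERPUD1 were high in the inhibitor-treated knockout of each line, DNAJC3 and SDF2L1 were low there in HCT116 and high in A375 relative to knockout vehicle, and CANX was low in A375 knockout vehicle.

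Set side by side, 8 members rose in both knockouts: XBP1, CREB3L2, SIL1, P4HB, HERPUD1, SYVN1, EDEM1 and OS9. Another 22 rose in A375 and were not called in HCT116, among them HSPA5, HYOU1, DNAJB9 and SEL1L, and 7 rose in A375 and fell in HCT116, namely HSP90B1, DNAJB11, DNAJC3, SDF2L1, MANF, PDIA4 and FKBP14. ATF6B and ERN1 were called in HCT116 alone as higher and CALR as lower, and DERL2 was called in neither. Of 12004 genes tested in both lines, 6.55% rose in both knockouts, 10.2% rose in A375 without a call in HCT116 and 1.8% rose in A375 and fell in HCT116. A further 9.26% were called in HCT116 alone as higher and 9.66% as lower, and 42.8% were called in neither. A call in 1 line and not in the other does not show a difference, which was therefore tested directly in the 24 libraries.

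The inhibitor effect was more positive in the A375 knockout than in the HCT116 knockout for 34 of 41 members and more negative for 1 (edgeR quasi-likelihood test, adjusted p under 0.05), where 10.9% and 8.75% of genes tested were called in these directions. The median difference was 0.41 on the log2 scale, against 0.002 over all genes. By role 3 of 6 sensors, 10 of 11 Hsp70 and Hsp90 members, 3 of 3 lectin chaperones, 10 of 10 isomerases and oxidases and 8 of 11 ERAD genes were more positive in A375. The median differences were 0.27, 0.58, 0.32, 0.39 and 0.39 in that order. These values come from a fit that shares its spread and scaling over both lines, so they depart slightly from the difference of the effects given above.

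The largest differences between the knockouts were those of an isomerase, an oxidase and an Hsp40 cofactor. FKBP14 differed by 1.34 ± 0.14 (edgeR adjusted p = 1.74e-13), ERO1B by 1.15 ± 0.16 (edgeR adjusted p = 8.23e-09) and DNAJB9 by 1.04 ± 0.16 (edgeR adjusted p = 1.5e-07). SDF2L1 differed by 0.94 ± 0.10, DNAJC3 by 0.84 ± 0.07, MANF by 0.83 ± 0.07, HSPA5 by 0.76 ± 0.04 and PDIA4 by 0.75 ± 0.05. Members that rose in both knockouts also differed in size, HERPUD1 by 0.75 ± 0.09, SYVN1 by 0.72 ± 0.10, CREB3L2 by 0.51 ± 0.08, XBP1 by 0.38 ± 0.08 and P4HB by 0.31 ± 0.04. ATF6B was the member with the more negative effect in A375, at -0.27 ± 0.09 (edgeR adjusted p = 0.0206). That call was lost with DESeq2 and without HCT116 knockout vehicle replicate 3, HCT116 knockout inhibitor replicate 1, or replicate 3 of the A375 knockout in vehicle or inhibitor. The UGGT1 call (0.18 ± 0.05) was lost without replicate 1 of the HCT116 knockout in vehicle or inhibitor.

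For 6 members the difference between the knockouts was not called, and their intervals vary in width. EDEM1 differed by 0.09 with a 95% interval from -0.09 to 0.27, and OS9 by 0.03 with an interval from -0.10 to 0.16. SIL1 differed by 0.08 (-0.19 to 0.34), DERL2 by 0.19 (-0.04 to 0.42) and ATF6 by 0.16 (0.0043 to 0.32, edgeR adjusted p = 0.151). ERN1, the least abundant of these, differed by -0.09 with the widest interval, from -0.59 to 0.41. The ATF6 difference was called without A375 knockout vehicle replicate 2.

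Relative to the parent in vehicle, the knockouts showed smaller member differences. In HCT116 2 members were higher (ATF6B at 0.32 ± 0.06 and ERO1A at 0.20 ± 0.05) and 4 lower by edgeR's quasi-likelihood test, where 10.5% and 10.8% of genes tested were higher and lower. The 4 were EDEM3 at -0.22 ± 0.07, TXNDC5 at -0.14 ± 0.03, HYOU1 at -0.10 ± 0.03 and HSPA5 at -0.08 ± 0.03, of which DESeq2 called TXNDC5 alone. The median member was at -0.01. In A375 10 members were higher and 1 lower, where 9.55% and 6.78% of genes tested were, with a median of 0.06. With DESeq2 size factors the A375 split was 8 and 2, and with library size alone 7 and 4.

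The member lower in the A375 knockout was CANX, at -0.41 ± 0.03 (edgeR adjusted p = 6.96e-19). The 10 higher were ATF6B, HSPA5, HSP90B1, DNAJB11, DNAJC3, MANF, CALR, PDIA3, PDIA6 and ERO1A, by 0.13 (CALR) to 0.23 (DNAJB11), with HSPA5 at 0.15 ± 0.03. The ATF6B and ERO1A calls were each lost in 13 alternative settings, DESeq2 among them, and the MANF call in 7. The count of 10 became 7 by DESeq2 and 7 to 8 with any 1 of the 6 libraries left out. The difference in CANX in vehicle and its rise with inhibitor are not independent, because both use the vehicle-treated knockout.

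Whether the inhibitor effect depended on genotype was tested within each line by subtracting the parent's response from that of its knockout. In A375 36 of 41 members differed upward and 0 downward by edgeR's quasi-likelihood test, where 13.3% and 14% of genes tested did. At an unadjusted p under 0.05 the counts were 37 and 0, and DESeq2 and limma-voom each called 37 and 0. HERPUD1 differed by 1.22 ± 0.08, XBP1 by 0.84 ± 0.07, FKBP14 by 0.81 ± 0.12 and HSPA5 by 0.79 ± 0.04, and the 5 not called were ATF6B, ERN1, CALR, ERO1A and DERL2. In HCT116 8 members differed upward and 8 downward, where 11.1% and 13.8% of genes did. EDEM1 at 0.63 ± 0.12, XBP1 at 0.59 ± 0.09, HERPUD1 at 0.52 ± 0.10 and ATF6B at 0.43 ± 0.09 were among the upward members, and SDF2L1 at -0.57 ± 0.09, DNAJC3 at -0.48 ± 0.07, FKBP14 at -0.41 ± 0.15 and CALR at -0.33 ± 0.04 among the downward ones. The FKBP14 call was lost with DESeq2 and in 6 of the fits that left out a library, namely those without parent vehicle replicate 2 or 3, parent inhibitor replicate 3, knockout vehicle replicate 3 or knockout inhibitor replicate 1 or 3. DESeq2 called 5 in each direction.

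Splicing of XBP1 by IRE1 removes a short intron from the coding sequence, shown here in capitals within the GENCODE v29 transcript, because its removal shortens the transcript. The 26 bases in capitals are absent from the spliced transcript, and 7 placements of the cut give the same spliced sequence, of which the one with CNGCNG across both ends is shown.
XBP1: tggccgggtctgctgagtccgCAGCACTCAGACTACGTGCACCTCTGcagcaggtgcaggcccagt

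The deposited gene length was read as a mean over transcripts weighted by their estimated abundance. A complete switch from unspliced to spliced would then shorten it by 26 bases, if the transcripts used differ by the intron alone. Their lengths were not checked, and the starting share of the spliced form was not estimated. In the A375 knockout it was 1817.6 ± 1.63 bases (SD, n = 3) in vehicle and 1816.8 ± 0.694 with inhibitor, a difference of -0.767 with overlapping libraries (exact permutation test, two-sided p = 0.5). In the HCT116 knockout it was 1816.2 ± 1.46 and 1816.9 ± 0.121, a difference of 0.67 (exact permutation test, p = 0.4). Of 6 comparisons only the vehicle-treated HCT116 knockout and parent (1813.3 ± 2.05) did not overlap, with 2.91 bases between the means (exact permutation test, p = 0.1, the smallest that 3 against 3 can give, and 0.6 after Benjamini-Hochberg adjustment over the 6). With 3 against 3 none of these 6 tests could pass 0.05, so they do not settle whether the length shifted. How well the estimates separate the spliced form was not tested.

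**Figure D4:**
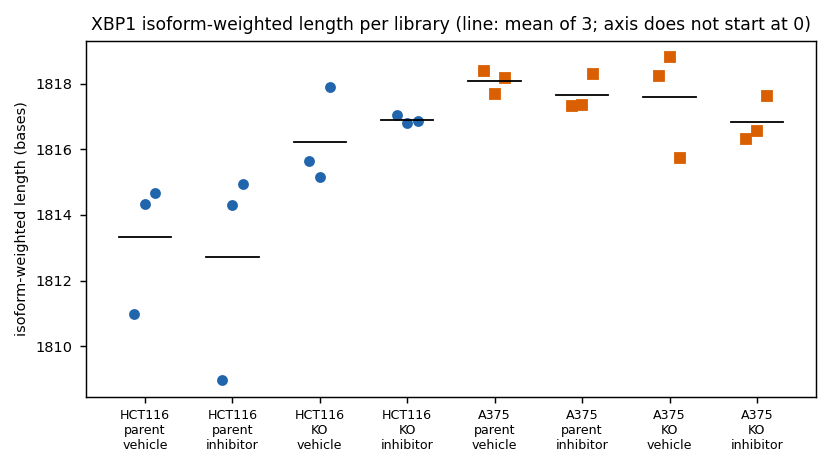
Isoform-weighted length of XBP1 in bases in each library (axis not from 0), by line, genotype and treatment, with a line at the mean of 3. Inhibitor and vehicle libraries overlap in each knockout, at 1815.2 to 1817.9 bases in HCT116 and 1815.7 to 1818.8 in A375.

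Members with an ERSE or ERSE-II in the promoter window were set beside the others with a promoter. In the A375 knockout 10 of 11 with an element rose, with a median of 0.42, and 24 of 27 without one, with a median of 0.43. CALR was the member with an element that did not pass the test there. In the HCT116 knockout 2 of 11 with an element rose (XBP1 and HERPUD1) and 3 fell, against 8 and 4 of 27 without. Over all genes tested 17.1% rose and 20.1% fell in HCT116, so the counts with an element were near background there, and 18.7% rose in A375. For the difference between the knockouts the counts more positive in A375 were 11 of 11 with an element and 20 of 27 without, with medians of 0.49 and 0.39, where 10.9% of genes were.

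Related genes outside the 41 were counted in 5 lists chosen by function, beside 18.7% of all genes higher and 18.9% lower in the A375 knockout and 17.1% and 20.1% in the HCT116 knockout. In the A375 knockout 22 of 28 translocon, signal peptidase and oligosaccharyltransferase genes rose and 0 fell, with a median of 0.23, and 19 of 33 other ER folding genes rose and 1 fell. Of 25 other ERAD genes 7 rose and 4 fell, with a median of 0.05. In the HCT116 knockout these lists had 6 up and 3 down of 27, 10 and 2 of 32, and 6 and 5 of 25. The first and the last of these were near the HCT116 background. Of 11 genes for sensor processing and other stress regulators 2 rose and 1 fell in the A375 knockout, and 3 rose and 2 fell in the HCT116 knockout. SEC61A1, the channel through which proteins enter the ER, went from 493, 472 and 484 CPM to 680, 663 and 675 CPM in A375 (0.48 ± 0.03), and from 352, 338 and 338 to 322, 325 and 316 CPM in HCT116 (-0.09 ± 0.03), a difference between the knockouts of 0.57 ± 0.04 (edgeR adjusted p = 1.76e-20). The ERAD lectin gene ERLEC1 rose by 0.79 ± 0.04 in A375 and was at 0.11 ± 0.07 in HCT116. Of the translocon list 16 of 28 were more positive in A375 than in HCT116 and 0 more negative. Those counts were 6 and 2 of 33 other ER folding genes and 5 and 2 of 25 other ERAD genes. For sensor processing they were 2 and 1 of 11, where 10.9% and 8.75% of all genes were called. Genes named from these lists, SEC61A1 and ERLEC1 included, were picked for the smallest adjusted p in that comparison, so they are extremes. SSR3 differed between the knockouts by 0.62 ± 0.05, FAM8A1 by 0.60 ± 0.13 and MLEC by 0.46 ± 0.05. FKBP2 differed by 0.43 ± 0.11, RTCB by 0.27 ± 0.08 and TMBIM6 by -0.14 ± 0.04.

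Most of the 14 genes listed for the PERK arm rose in each knockout, with the larger changes in HCT116 for most that differed. Their RNA does not show whether PERK itself was active, which was not tested. Of 14 genes 13 rose and 1 fell in the A375 knockout and 12 rose and 1 fell in the HCT116 knockout, with medians of 0.55 and 0.80, against those same shares of all genes. The effect was more negative in A375 for 7 of the 14 and more positive for 2, a median difference of -0.23, where 8.75% and 10.9% of all genes were called in these directions. DDIT3, which encodes CHOP, went from 6.10, 6.30 and 8.58 CPM to 32.3, 27.5 and 27.2 CPM in HCT116 and from 19.9, 16.0 and 15.2 to 34.0, 35.7 and 33.8 CPM in A375, a difference of -1.04 ± 0.16 (edgeR adjusted p = 1.2e-07). ATF4, the transcription factor translated when eIF2α is phosphorylated, differed by -0.27 ± 0.04. ASNS differed by -1.44 ± 0.06 and TRIB3 by -0.88 ± 0.07, named because they had the smallest adjusted p of the 14 here. EIF2AK3, which encodes the sensor PERK, was among the exceptions, with a rise of 1.32 ± 0.09 in A375 and 0.35 ± 0.10 in HCT116, a difference of 0.98 ± 0.14 (edgeR adjusted p = 6.09e-09).

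The kit used is not stated to keep strand, and 13 of the 41 members overlap another listed gene. For most the neighbour had few counts, but SYVN1 overlaps MRPL49, DERL2 overlaps MIS12, CREB3 overlaps GBA2 and TXNDC11 overlaps SNN, which had mean counts of 990, 341, 493 and 154 per library against 408, 337, 296 and 369 for the members. Reads in the shared stretch cannot be assigned with certainty, so these 4 are uncertain.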

How the data were processed

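RNA abundance was measured in 24 poly(A) libraries of 2 human cell lines, in 8 groups of 3. The submitters' processing notes name STAR 2.4.2a, RSEM 1.2.23 and hg19. The annotation release is not given in the sources used here. Values in the deposited expected count column were read as estimated reads for each gene. The deposited TPM values were read as scaled for length and depth, and the deposited length as the abundance-weighted mean transcript length. These meanings were taken as usual for RSEM columns of these names. FPKM was not used. Of 25343 listed genes 25220 matched a symbol in a RefSeq table (GRCh38.p14, names only). The sequence windows come from RefSeq GRCh38.p14 and the XBP1 transcript from GENCODE v29, neither of which is the build of the files.

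Expected counts were rounded, scaled by TMM and filtered with edgeR's filterByExpr (minimum count 10, minimum total 15). All 41 members passed in each fit, of 13164 genes tested in HCT116, 13456 in A375 and 14637 in the fit of 24 libraries. The quasi-likelihood F test of edgeR 4.0.16 (R 4.3.3), robust and two-sided, was run over the 12 libraries of a line with a mean per group, and over all 24 for comparisons between lines. P-values were adjusted by Benjamini-Hochberg over all genes tested, and adjusted p under 0.05 is called. The standard error is the size of the log2 change divided by the square root of F. CPM uses the TMM factors of the 24 libraries. The test was checked on simulated counts. Replicates differed by more than sampling noise in every group (chi-square per degree of freedom 1.48 to 2.10).

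The members, the lists and the comparisons were chosen with earlier results of these data known. The rule for named genes took all 41 members, PTDSS2, line markers, and of each of 5 other lists the 2 genes with the smallest adjusted p between the knockouts plus EIF2AK3, ATF4 and DDIT3. Other settings tried were scaling by library size only or by DESeq2 size factors, testing every gene with a count or only those with a mean of at least 5 CPM, the tests of DESeq2 1.42.0 and limma-voom (limma 3.58.1), fits of only the groups compared or of 24 libraries, a replicate block, and omission of each library in turn.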

Additional observations from a re-analysis of the deposited data

Results flagged for a closer look

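The response to the inhibitor was not the same in the knockouts of the lines (edgeR quasi-likelihood test of the difference, adjusted p under 0.05) for 35 members, and these differences, A375 minus HCT116 on the log2 scale, are listed here by role. Among the sensors and transcription factors the differences were XBP1 at 0.38, ATF6B at -0.27, CREB3 at 0.48 and CREB3L2 at 0.51. The Hsp70 and Hsp90 chaperones and cofactors differed, with HSPA5 at 0.76, HSP90B1 at 0.49, HYOU1 at 0.58, DNAJB9 at 1.04, DNAJB11 at 0.53, DNAJC3 at 0.84, DNAJC10 at 0.42, SDF2L1 at 0.94, MANF at 0.83 and CRELD2 at 0.41. The lectin chaperones differed, with CALR at 0.32, CANX at 0.36 and UGGT1 at 0.18. The disulfide and prolyl isomerases differed, with PDIA3 at 0.39, PDIA4 at 0.75, PDIA6 at 0.38, P4HB at 0.31, TXNDC5 at 0.26, TXNDC11 at 0.41, ERO1A at 0.24, ERO1B at 1.15, FKBP14 at 1.34 and PPIB at 0.34. The ERAD genes differed, with HERPUD1 at 0.75, SEL1L at 0.48, SYVN1 at 0.72, DERL1 at 0.33, EDEM2 at 0.44, EDEM3 at 0.58, SELENOS at 0.34 and SELENOK at 0.39.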

How the results depend on the processing

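The counts of members that rose in the A375 knockout ran from 36 to 39 of 41 over all alternatives, and those more positive in A375 than in HCT116 from 33 to 35, against 37 and 34. In the HCT116 knockout the rises ran from 8 to 13 and the falls from 6 to 8, against 10 and 8. No call changed direction. Small counts moved more. Members lower in the HCT116 knockout than in its parent numbered 4, with 1 by DESeq2 and 2 to 4 with a library left out, where the lowest counts came without replicate 1 or 2 of the parent or replicate 1 or 3 of the knockout. For the inhibitor effect in HCT116 by genotype, 8 upward and 8 downward became 5 and 5 by DESeq2, and the downward count ran from 5 to 10 with a library left out, at 5 without inhibitor replicate 3 of parent or knockout. Members higher in the A375 knockout than in its parent numbered 10, against 7 by DESeq2, 10 by limma-voom and 7 to 8 with a library left out. Members lower there numbered 1, against 2 with DESeq2 size factors, 4 with library size alone, 2 without a filter, 2 at a mean of 5 CPM, 2 with only the groups compared and 1 to 2 with a library left out (2 without parent vehicle replicate 2 or 3). The member more negative in A375 than in HCT116, ATF6B, was not called by DESeq2, which gave 0, and leaving out a library gave 0 to 1. The causes were not tested.

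Same-numbered libraries deviated together weakly or not at all (correlations from -0.066 to 0.0925). Whether they shared a culture or batch was not tested. With the replicate block 38 members rose in the A375 knockout and 10 rose in the HCT116 knockout. A library correlated best with its own number in 8 of 18 cases in HCT116 and 3 of 18 in A375.

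Depth limits ERN1 in A375 (2.32 to 5.24 CPM) and ERO1B in HCT116 (6.90 to 11.1 CPM) most.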
